A study of Mus with 6 samples.

Results

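Meningeal fibroblasts are the cells of the pia, arachnoid and dura, the membranes that wrap the brain, and they also line larger vessels inside it. They secrete collagens, proteoglycans and other matrix proteins, and they carry solute transporters that exchange organic anions, dicarboxylates, sulphate and amino acid derivatives with the cerebrospinal fluid. In a dissected piece of brain their transcripts come from the pial surface and from the walls of vessels. The genes described are 9 that are widely used as markers of these cells. Slc6a13, Slc13a3, Slc13a4 and Slc22a6 are transporters, Igfbp2 and Ptgds encode secreted proteins of the fluid, and Dcn, Fmod and Mgp encode secreted matrix proteins. They were taken by gene name from a table of 54532 genes, which held all 9, each under 1 Ensembl identifier.

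The study profiled the basolateral amygdala, a nucleus for learned fear, of mice labelled female by RNA sequencing. It held 3 libraries of Cntnap4 knockout mice (KO1 to KO3) and 3 of wild-type mice (WT1 to WT3). Both groups share the tissue, the sex and the library kit, and no treatment is given for either. The labels leave out the strain, the age, the deleted part of Cntnap4 and whether the libraries are of different animals, so p-values measure only the spread between these libraries, which may be technical. Values are FPKM, read fragments per unit of gene length and of sequencing depth, so levels can be set side by side between genes. The reads behind each value, recovered from FPKM, gene length and the library size that each library's values imply, summed to 16153081 to 17169801 in KO libraries and 15933029 to 17789798 in WT libraries. Cntnap4 itself was at 1.08, 1.19 and 1.28 FPKM in KO1 to KO3, against 3.53, 3.90 and 2.15 in WT1 to WT3, with no overlap; its log2 fold change of -0.92 (SE 0.18) had an adjusted p of 0.302 in limma.

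KO was compared with WT in 1 fit over the 13087 genes with a mean of at least 1 FPKM, on log2(FPKM + 1), with limma and Benjamini-Hochberg adjustment over all of them at a threshold of 0.05. The libraries were not paired by number in this fit. All 9 genes entered the fit, and each also had a mean above 1 FPKM in KO alone, the lowest being 1.55. On this scale the fold change of a weakly expressed gene is understated. None of the 9 passed (0 of 9), where 0.00764% of all genes tested did, which is 1 gene. All 9 were lower on average in KO, with KO/WT ratios of mean FPKM between 0.293 and 0.592. Of all genes tested, 48.7% were lower on average in KO, the share to set beside such counts here and below. At an unadjusted p under 0.05, 7 of the 9 were lower, against 7.25% of all genes tested, and voom on the recovered reads gave 0 past the threshold and 7 at an unadjusted p under 0.05, against 6.98% of all genes. The 9 genes were chosen with earlier results of these data known. Contrasts with the share of all genes, here and below, may partly reflect that choice. In a bulk sample, fewer cells of a type and less RNA per cell cannot be told apart.

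Slc6a13, a sodium- and chloride-driven transporter of GABA and taurine, lies on chromosome 6 from 121300227 to 121337733 (plus strand; ENSMUSG00000030108). It was at 2.35, 1.87 and 2.09 FPKM in KO1 to KO3, against 4.95, 4.30 and 2.92 FPKM in WT1 to WT3. All KO values lay below all WT values, and KO libraries were close to each other while WT3 stood nearest to them. Its log2 fold change of -0.69 (SE 0.17) had the smallest p of the 9, with an adjusted p of 0.302 in limma. It rested on 94 to 112 reads in KO libraries and 143 to 269 in WT libraries.

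Slc13a3, a sodium-coupled carrier of dicarboxylates such as succinate and N-acetylaspartate, lies on chromosome 2 from 165405028 to 165473230 (minus strand; ENSMUSG00000018459). It was at 2.71, 1.25 and 1.96 FPKM in KO1 to KO3, against 6.14, 3.64 and 3.32 FPKM in WT1 to WT3. The groups did not overlap, and the highest library of each was the one numbered 1. The fold change on the log2 scale was -0.85 (SE 0.25; adjusted p of 0.303 in limma).

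Slc13a4, the sulphate carrier of the same family, lies on chromosome 6 from 35267957 to 35308131 (minus strand; ENSMUSG00000029843). It was at 2.20, 1.35 and 1.10 FPKM in KO1 to KO3, against 6.71, 2.82 and 2.68 FPKM in WT1 to WT3. Again no KO value reached a WT value, but WT1 stood 2.44 times above the mean of WT2 and WT3, which were close to KO1. On the log2 scale the fold change was -0.93 (SE 0.31; adjusted p of 0.303 in limma), and -0.58 without WT1.

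Slc22a6, the organic anion exchanger known from the kidney's uptake of drugs and urate, lies on chromosome 19 from 8617996 to 8628299 (plus strand; ENSMUSG00000024650). It was at 2.25, 1.29 and 1.31 FPKM in KO1 to KO3, against 5.54, 2.87 and 2.15 FPKM in WT1 to WT3. Here the groups overlapped, since KO1 lay above WT3. The difference came to a log2 fold change of -0.74 (SE 0.28; adjusted p of 0.328 in limma), and to -0.43 without WT1.

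Igfbp2 encodes a secreted protein that binds insulin-like growth factors and is made by meninges, choroid plexus and astrocytes. It lies on chromosome 1 from 72824503 to 72852474 (plus strand; ENSMUSG00000039323). It was at 17.7, 5.90 and 10.3 FPKM in KO1 to KO3, against 34.8, 16.0 and 19.9 FPKM in WT1 to WT3. KO1 lay between WT2 and WT3, and KO2 was the lowest of the 6 libraries. Limma gave a log2 fold change of -1.04 (SE 0.40; adjusted p = 0.328). The spread was wide, with KO1 at 3.01 times KO2 and WT1 at 2.18 times WT2.

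Ptgds encodes a lipocalin that makes prostaglandin D2 and is among the most abundant proteins of the cerebrospinal fluid; in the brain its transcript is also strong in mature oligodendrocytes. It lies on chromosome 2 from 25466709 to 25470046 (minus strand; ENSMUSG00000015090). It was at 391, 297 and 203 FPKM in KO1 to KO3, against 810.3, 487 and 307 FPKM in WT1 to WT3. KO1 exceeded WT3, so the groups overlapped, and in both groups the library numbered 1 was highest and the library numbered 3 lowest. Limma gave a log2 fold change of -0.79 (SE 0.38), with an interval of -1.67 to 0.10 (95%) and a limma adjusted p of 0.379. It was the highest of the 9 by far, above 99.7% of all genes tested, and its lowest library was above every value of the other 8 genes.

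Dcn encodes decorin, a small leucine-rich proteoglycan that binds collagen fibrils and transforming growth factor beta, and is also made by some excitatory neurons. It lies on chromosome 10 from 97479609 to 97518143 (plus strand; ENSMUSG00000019929). It was at 2.36, 1.29 and 1.57 FPKM in KO1 to KO3, against 9.17, 6.68 and 1.95 FPKM in WT1 to WT3. WT1 and WT2 were high, while WT3 fell among the KO libraries, below KO1. Its log2 fold change of -1.18 (SE 0.43; adjusted p of 0.321 in limma) was the furthest from 0 of the 9, with an interval of -2.20 to -0.16 (95%). Without WT1 it was -0.81.

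Fmod encodes fibromodulin, a relative of decorin that also binds collagen fibrils. It lies on chromosome 1 from 134037254 to 134048277 (plus strand; ENSMUSG00000041559). It was at 8.54, 3.77 and 3.51 FPKM in KO1 to KO3, against 14.7, 7.59 and 4.39 FPKM in WT1 to WT3. KO1 was above both WT2 and WT3, the most overlap of the 9 genes. Its log2 fold change was -0.61 (SE 0.43; adjusted p of 0.523 in limma), with an interval of -1.63 to 0.41 (95%), and without WT1 it was -0.21.

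Mgp encodes matrix Gla protein, a vitamin K-dependent inhibitor of calcification that binds bone morphogenetic proteins and is also made by vascular cells. It lies on chromosome 6 from 136872435 to 136875823 (minus strand; ENSMUSG00000030218). It was at 14.5, 9.67 and 12.8 FPKM in KO1 to KO3, against 30.6, 14.5 and 21.6 FPKM in WT1 to WT3. The groups touched, with KO1 and WT2 at the same level to 3 digits. For Mgp the log2 fold change was -0.76 (SE 0.26; adjusted p of 0.316 in limma).

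**Figure D1:**
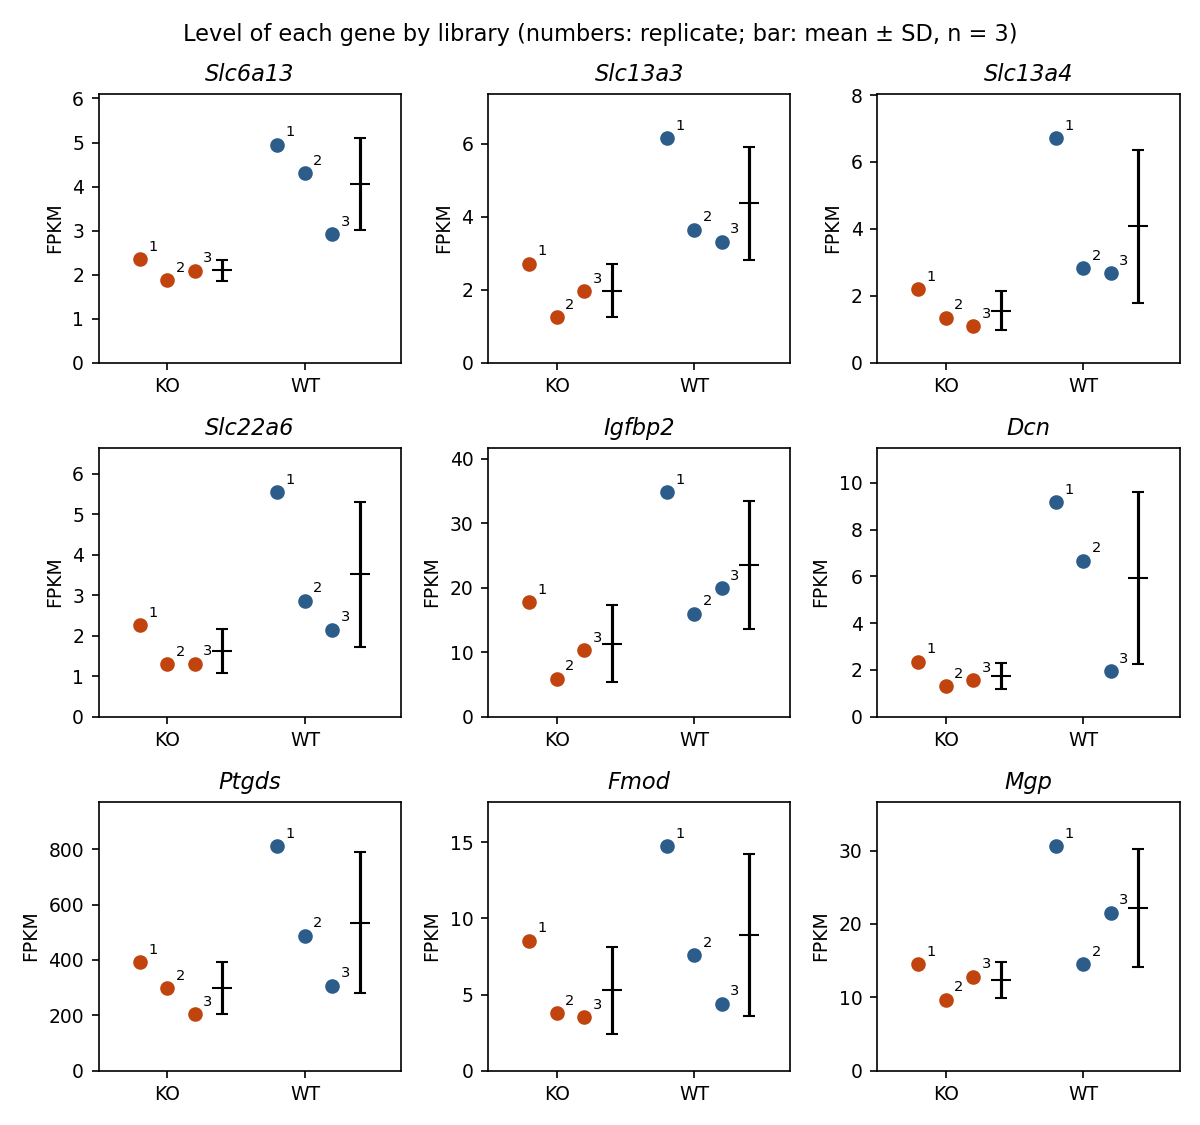
FPKM of each of the 9 genes in every library, KO on the left and WT on the right; numbers give the replicate, and the bar gives the mean ± SD of 3 libraries. WT1 is the highest library in all 9 panels and KO1 the highest KO library; Slc6a13, Slc13a3 and Slc13a4 are the 3 genes without overlap between the groups.

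For 3 of the 9, Slc6a13, Slc13a3 and Slc13a4, every KO value was below every WT value, against 10.1% of all genes tested. KO2 and KO3 lay below every WT library for all 9 genes, and KO1 lay above at least 1 WT library for 6 of them. The share of all genes with KO2 and KO3 below every WT library was not computed. The looser order, KO2 and KO3 below WT2 and WT3, held for 19.8% of all genes tested. By mean level the order in WT was Ptgds, Igfbp2, Mgp, Fmod, Dcn, Slc13a3, Slc13a4, Slc6a13 and Slc22a6. In KO it was Ptgds, Mgp, Igfbp2, Fmod, Slc6a13, Slc13a3, Dcn, Slc22a6 and Slc13a4. In each of the 6 libraries Ptgds came first, Igfbp2 and Mgp next in either order, and then Fmod. The mean levels of Igfbp2 and Mgp differed by less than the larger of their SDs in both groups. So did those of Dcn and the 4 transporters among themselves, which changed places between libraries. Dcn came right after Fmod in WT1 and WT2 and last in WT3.

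The 9 genes moved together from library to library. WT1 was the highest of the 6 libraries for 9 of 9 genes, against 24.9% of all genes tested, and KO1 was the highest KO library for 9 of 9, against 40.8%. WT1 was the highest WT library and KO1 the highest KO library at once for all 9, against 16.3% of all genes. WT1 stood 1.37 (Slc6a13) to 2.46 (Fmod) times above the mean of WT2 and WT3, where the median over all genes tested was 0.987. KO1 stood 1.19 (Slc6a13) to 2.35 (Fmod) times above the mean of KO2 and KO3, where the median over all genes was 1.02. Averaged over the 9 genes, log2(FPKM + 1) centred on each gene's own mean was -0.02, -0.67 and -0.56 in KO1 to KO3, and 1.02, 0.28 and -0.03 in WT1 to WT3, so KO1 and WT3 were level. The genes differed in the lower WT libraries: WT2 was above WT3 for 7 genes and below it for Igfbp2 and Mgp.

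**Figure D2:**
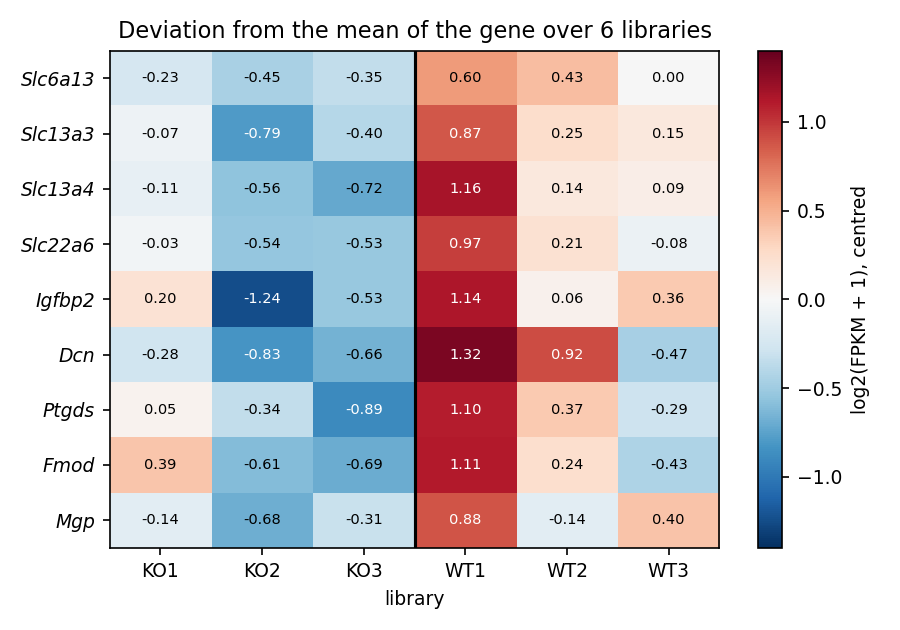
log2(FPKM + 1) of each gene minus its own mean over the 6 libraries, KO libraries left of the line and WT libraries right of it; red is above the gene's mean and blue below. WT1 is above the mean for every gene, from 0.60 (Slc6a13) to 1.32 (Dcn), and KO2 and KO3 are below it for every gene.

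The spread within groups was wide for these genes. The within-group SD of log2(FPKM + 1) ran from 0.23 (Slc6a13) to 0.69 (Dcn and Fmod), where genes of like level had a median of 0.15 to 0.17. For 7 of the 9 it was above that of 90% of the genes of like level, for Slc13a3 above that of 88.5% and for Slc6a13 above that of 68.3%. Between same-numbered libraries the KO value was lower for 9 of 9 genes in all 3 pairs, against 21.7% of all genes tested. With the replicate number as a block, 9 of 9 were lower at an unadjusted p under 0.05, against 9.92% of all genes, and 0 passed the adjusted threshold. The KO/WT ratio ran from 0.257 to 0.580 between KO1 and WT1, from 0.194 to 0.666 between KO2 and WT2, and from 0.410 to 0.806 between KO3 and WT3. Dcn had the lowest ratio in the pairs numbered 1 and 2 and the highest in the pair numbered 3.

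Without WT1 the log2 fold changes ran from -0.81 (Dcn) to -0.21 (Fmod), and 3 of the 9 were lower at an unadjusted p under 0.05, against 5.26% of all genes. That count was 2 without KO2, against 3.81%, and 3 without KO3, against 6.09%. With both libraries numbered 1 left out, a choice made after seeing the data, it was 6, against 4.49%, and the log2 fold changes ran from -1.10 (Igfbp2) to -0.55 (Fmod). KO2 and KO3 were then below WT2 and WT3 for 9 of 9 genes, against 19.8% of all genes tested. None of the 9 passed the adjusted threshold in any of these fits (0 of 9 in each).

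**Figure D3:**
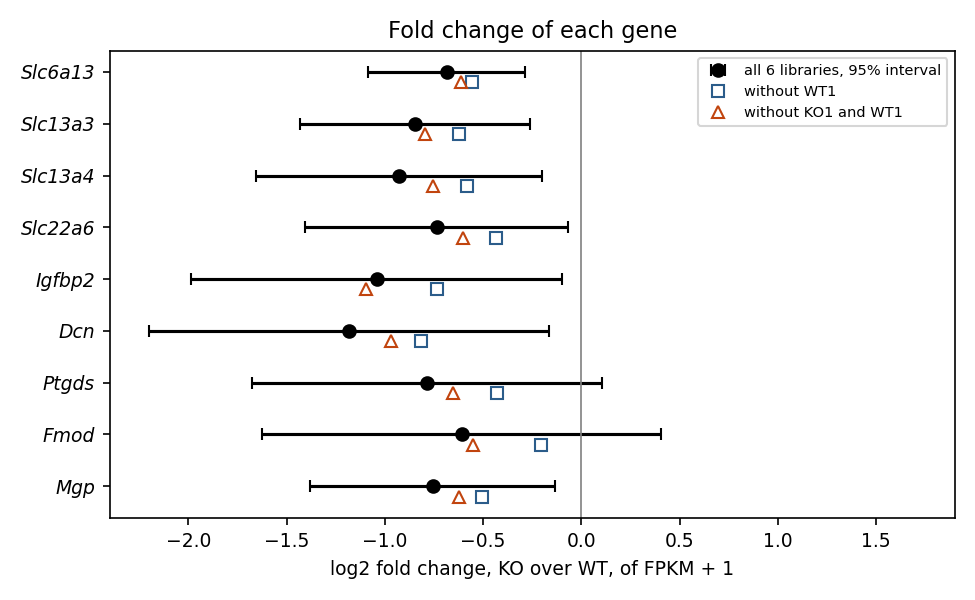
Log2 fold change of FPKM + 1, KO over WT, for each gene with its 95% interval from the fit over all libraries (black), and the value without WT1 (squares) and without KO1 and WT1 (triangles). All values are below 0; the intervals of Ptgds and Fmod cross 0, and the values without WT1 are the nearest to 0.

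Relatives of the 9 genes were read from lists of gene families, and none of their members passed the threshold (0 in every list). The genes named are among the largest 3 of each family by mean level. Of the other Slc13 carriers, Slc13a5, the citrate carrier of neurons, was at 3.00 ± 0.54 FPKM in KO and 2.47 ± 0.44 in WT (SD, n = 3 each). Slc13a1 was below 0.1 FPKM in all libraries, and Slc13a2 was listed at 0. Of the GABA, taurine, betaine and creatine transporters related to Slc6a13, 2 of the 4 tested were lower on average in KO (median log2 fold change -0.01, 0.06 without WT3 and -0.10 without WT1). The astrocytic GABA transporter Slc6a11 was at 29.3 ± 3.37 FPKM in KO and 35.5 ± 0.75 in WT, without overlap, and the creatine transporter Slc6a8 at 21.0 ± 1.52 in KO and 18.8 ± 2.55 in WT. Of these, Slc6a8 was highest in KO1, and Slc6a11 in WT1, with 36.3 FPKM beside 34.9 in WT2 and 35.3 in WT3.

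Of the Slc22 organic ion transporters, 4 of 5 tested were lower on average (median -0.34, and -0.22 without WT1). Slc22a8, an organic anion transporter close to Slc22a6 and found in brain endothelium and choroid plexus, was at 3.94, 3.98 and 4.05 FPKM in KO1 to KO3, against 9.30, 4.81 and 5.99 FPKM in WT1 to WT3, with no overlap (log2 fold change -0.58, SE 0.20, limma adjusted p = 0.309). Slc22a17, a receptor for a siderophore-binding protein, was at 127 ± 25.2 FPKM in KO and 163 ± 36.9 in WT, and Slc22a23 at 15.0 ± 1.12 in KO and 13.4 ± 1.33 in WT. Slc22a8 shared the WT1 peak but not the KO1 peak of the 9 genes.

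In the insulin-like growth factor system 2 of 7 tested genes were lower on average and 5 higher (median 0.03, and -0.04 without WT3). Igfbp7, of the vessel wall, was at 28.5, 22.8 and 29.8 FPKM in KO1 to KO3, against 40.8, 33.4 and 50.0 FPKM in WT1 to WT3, without overlap and with its peak in WT3. It was the 1 tested gene of the list with every KO value below every WT value, against 10.1% of all genes. Another 1 had every KO value above every WT value, against 11.9%. Igfbp6 was at 33.1 ± 6.99 FPKM in KO and 32.4 ± 2.46 in WT, and Igfbp5 at 24.9 ± 4.60 in KO and 20.8 ± 2.90 in WT. Neither Igfbp6 nor Igfbp5 had its highest value in WT1, where Igfbp2 peaked.

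Of the other small leucine-rich proteoglycans, some of which are also fibroblast markers, all 5 tested were lower on average in KO (5 of 5; median -0.34), against 48.7% of all genes tested. Ogn, osteoglycin, was at 4.22, 2.20 and 2.18 FPKM in KO1 to KO3, against 9.27, 3.45 and 3.12 FPKM in WT1 to WT3. Its libraries took the same places as those of Fmod, with KO1 above WT2 and WT3. Prelp was at 4.71 ± 0.91 FPKM in KO and 6.20 ± 0.57 in WT without overlap, and Bgn, biglycan, at 2.17 ± 0.37 in KO and 3.30 ± 0.91 in WT. WT1 was the highest WT library and KO1 the highest KO library for 4 of the 5, against 16.3% of all genes. The median was -0.21 without KO2.

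Around Ptgds, the 2 tested genes of the prostaglandin D2 pathway had higher means in KO. The cyclooxygenase Ptgs2, an activity-induced gene, was at 5.98 ± 3.84 FPKM in KO and 4.63 ± 3.24 in WT, and Ptgs1 at 4.19 ± 0.58 in KO and 3.98 ± 0.94 in WT (median of the list 0.19, 0.03 without KO1, 0.06 without WT1 and -0.10 without both libraries numbered 1); for Ptgs2 the direction turned without KO1. Hpgds, the haematopoietic synthase of prostaglandin D2, was below the filter at 0.89 ± 0.20 in KO and 0.97 ± 0.22 in WT. Its level was thus far below that of Ptgds in both groups. Of the vitamin K enzymes, Gla proteins and bone morphogenetic proteins listed with Mgp, 8 of 9 were lower on average (median -0.21, and -0.09 without WT3). Bmp7, a bone morphogenetic protein of the meninges, was at 3.95, 2.63 and 2.85 FPKM in KO1 to KO3, against 6.76, 4.33 and 4.17 FPKM in WT1 to WT3, without overlap. Gas6 was at 37.2 ± 3.03 FPKM in KO and 40.1 ± 3.41 in WT, and Vkorc1l1, which recycles vitamin K, at 16.1 ± 1.77 in KO and 15.0 ± 0.50 in WT.

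The 9 genes were set beside a list of 27 other markers of meningeal fibroblasts, none of which was at 0 in all libraries. The list was chosen with earlier results of these data known, so it cannot serve as an independent check of their label. It shares Ogn, Bgn, Lum, Slc22a2 and Bmp6 with the family lists above. Of the 19 tested, 19 were lower on average in KO, against 48.7% of all genes tested (median -0.37, beside 0.0076 over all genes). Of the 19, 3 had no overlap, against 10.1% of all genes tested. None passed the threshold (0 of 19), and 3 were at an unadjusted p under 0.05, all lower, against 7.25% of all genes. WT1 and KO1 were the highest library of their groups for 12 of the 19, against 16.3% of all genes. The summed level of the 27 was 93.1 to 114 FPKM in KO and 104 to 166 in WT. Apod alone, at 59.1 to 66.4 FPKM in each library, is a large part of this sum. Aldh1a2, the enzyme of retinoic acid synthesis in the meninges, was at 4.28, 1.48 and 2.12 FPKM in KO1 to KO3, against 8.90, 4.63 and 3.30 FPKM in WT1 to WT3. Islr was at 9.52, 5.09 and 5.02 FPKM in KO1 to KO3, against 15.0, 5.41 and 5.09 FPKM in WT1 to WT3, so its libraries other than those numbered 1 were level. Apod, which oligodendrocytes and astrocytes also make, was at 61.9 ± 2.96 FPKM in KO and 62.3 ± 3.64 in WT. The median of the list was -0.18 without WT1, -0.61 without WT2 and -0.32 without both libraries numbered 1.

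Markers of other cells that share some of the 9 genes were summed by library. The 15 markers of mature oligodendrocytes summed to 615, 863 and 754 FPKM in KO1 to KO3, against 292, 570 and 841 FPKM in WT1 to WT3, so they were lowest in WT1, where Ptgds was highest. Mbp, of compact myelin, was at 211 ± 35.7 FPKM in KO and 171 ± 87.1 in WT, and Mobp at 88.0 ± 21.2 in KO and 61.2 ± 39.2 in WT. Of these 15, 14 were higher on average in KO (median 0.48, and 0.12 without WT1, where Mbp was at -0.02), and none passed (0 of 15). Choroid plexus markers summed to 44.8 to 62.6 FPKM in KO and 45.0 to 69.9 in WT, and 12 of the 15 were below the filter. Of the 3 tested, 2 were lower on average in KO (median -0.55, and -0.12 without KO2). The other was Enpp2, which was higher in KO and is part of the sum. Ttr, the carrier of thyroid hormone made by that epithelium, was at 21.9, 2.70 and 18.9 FPKM in KO1 to KO3, against 44.9, 13.5 and 18.0 FPKM in WT1 to WT3, with WT1 highest, KO1 the highest KO library and KO2 lowest, as for most of the 9 genes. Clic6 was at 0.64 ± 0.36 in KO and 1.38 ± 0.44 in WT, and Enpp2, which oligodendrocytes also make, at 38.8 ± 2.44 in KO and 26.0 ± 9.42 in WT. The 8 ependymal markers summed to 3.70 to 6.34 FPKM in KO and 4.92 to 10.9 in WT, with Mia listed at 0. The 2 tested were both highest in WT1, against 24.9% of all genes tested.

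Mural cell markers summed to 71.8 to 94.4 FPKM in KO and 78.7 to 145 in WT, with the highest library in WT3. Of the 9 tested, 3 were highest in WT1, near the 24.9% of all genes tested. For 3 every KO value was below every WT value, against 10.1% of all genes. Acta2 was at 6.53, 7.35 and 11.35 FPKM in KO1 to KO3, against 30.71, 7.29 and 20.42 FPKM in WT1 to WT3. Its log2 fold change was -0.95, with overlap and its peak in WT1. All 9 tested mural markers were lower on average (9 of 9), against 48.7% of all genes, with a median of -0.36, and -0.20 without WT3. None passed the threshold, and 3 were lower at an unadjusted p under 0.05, against 7.25% of all genes. Endothelial markers summed to 85.9 to 114 FPKM in KO and 85.0 to 151 in WT, and 8 of 11 were lower on average (median -0.09, which turned to 0.11 without WT3 and was -0.22 without WT1 and -0.18 without KO3). Astrocyte markers summed to 628 to 720 FPKM in KO and 669 to 917 in WT, and 9 of 10 were lower on average (median -0.22, and -0.08 without WT3; 2 at an unadjusted p under 0.05, against 7.25% of all genes). Border macrophage markers summed to 2.59 to 4.43 FPKM in KO and 5.30 to 6.92 in WT, without overlap, and 1 of the 8 was tested. Excitatory neuron markers summed to 728 to 960 FPKM in KO and 709 to 834 in WT, and 7 of 8 were higher on average (median 0.14, and 0.34 without KO3; 2 at an unadjusted p under 0.05, against 7.05% of all genes). Within these lists none passed the threshold (0 in each). The part of these cells in the levels of the 9 genes was not tested.

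**Figure D4:**
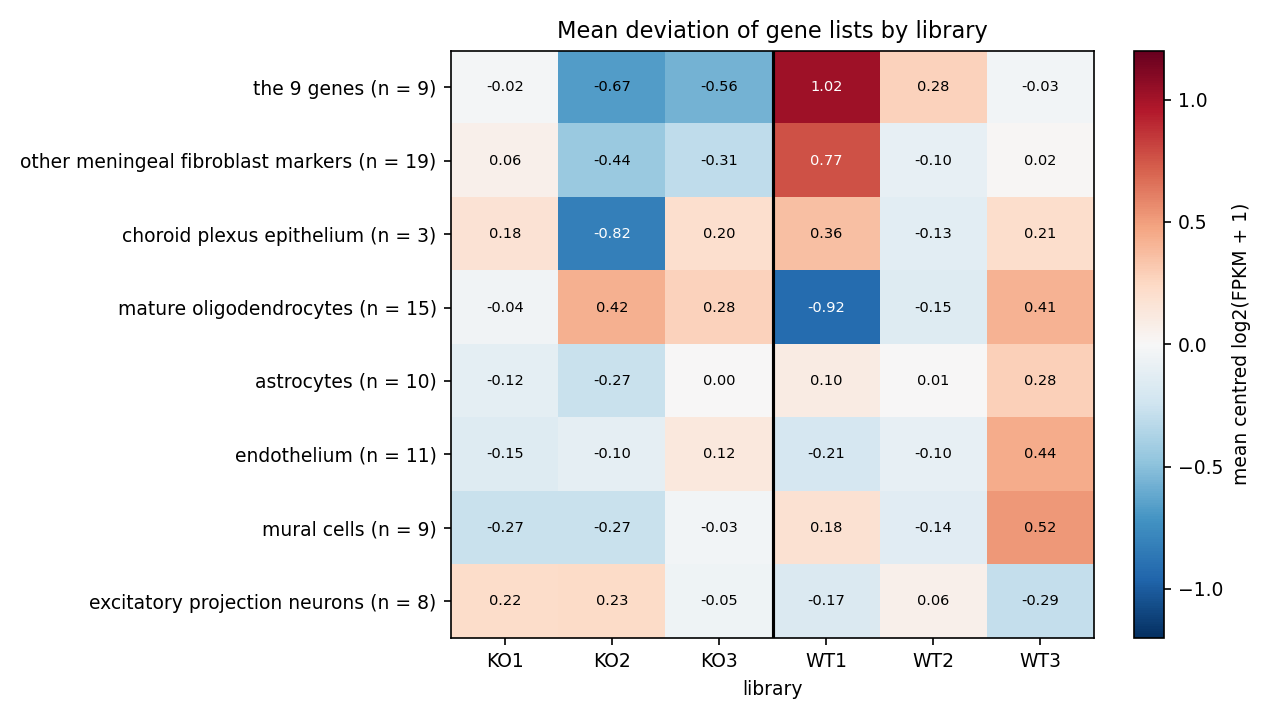
Mean over the tested genes of each marker list of log2(FPKM + 1) centred on each gene's own mean, by library, KO libraries left of the line and WT libraries right of it. The 9 genes and the other meningeal fibroblast markers peak in WT1 at 1.02 and 0.77, and the oligodendrocyte list is lowest there at -0.92. The mean over the 3 choroid plexus genes tested also peaks in WT1, at 0.36, though 1 of them, Enpp2, is lowest there. The mural list peaks in WT3 at 0.52.

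The genes outside all lists whose profile over the 6 libraries was closest to the average of the 9 were found among 11445 protein-coding genes by the root-mean-square difference of centred log2(FPKM + 1). The nearest was Myoc, myocilin, a secreted glycoprotein of the eye's outflow tissue and other connective tissue, with a difference of 0.0995. It was at 7.78, 4.11 and 3.98 FPKM in KO1 to KO3, against 14.6, 8.94 and 7.65 FPKM in WT1 to WT3. After it came Trp53i11 (0.104), Spp1 (0.114), H2-Ab1 (0.121), Oxtr (0.129) and Lrig1 (0.130). Spp1 encodes osteopontin, a secreted matrix protein, and H2-Ab1 a class II histocompatibility chain, which rested on 9 to 18 reads in KO libraries and 24 to 107 in WT libraries. Oxtr, the oxytocin receptor, was at 2.00, 0.77 and 1.27 FPKM in KO1 to KO3, against 5.47, 3.57 and 2.10 FPKM in WT1 to WT3, without overlap. H2-Ab1 and Lrig1 had no overlap either, while Myoc, Trp53i11 and Spp1 overlapped. Since the 6 were chosen by likeness to the profile of the 9 genes, their lower levels in KO follow from that choice. None of the 6 passed the threshold (0 of 6; limma adjusted p between 0.303 and 0.379). Among the 9 genes themselves the same difference ran from 0.0668 for Slc22a6 to 0.363 for Dcn, so Slc22a6 was the most typical and Dcn the least.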

How the data were processed

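RNA of 6 basolateral amygdala samples was extracted with a column kit and made into libraries with a SMARTER kit, per the labels' protocols. The authors deposited 1 table of FPKM per gene with gene lengths and positions. GRCm38 and mm10 are the builds named in the submitters' processing notes, and positions are those of the table. The sources used here name no aligner or counter and do not say whether strand was used. FPKM times length, scaled by 1 constant per library, gave a whole number of reads for 100% of values (tolerance 0.01 reads); the library sizes these constants imply were 0.964 to 1.05 times the summed reads.

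Values were taken as log2(FPKM + 1) for genes with a mean of at least 1 FPKM and fitted with limma 3.58.1 in R 4.3.3 (variance trend, two-sided, Benjamini-Hochberg); the fit was tested on simulated data. An exact permutation test of 3 against 3 cannot go below 0.1. The genes and lists were chosen with earlier results of these data known. The rule for other named genes took Cntnap4, the 3 genes of highest mean level in each list, and the 6 nearest by profile; some genes the rule takes are not reported here, and marker lists of other cells are mostly given as sums. In the table the span of Slc6a13 holds a miRNA model and that of Slc13a3 an antisense model, both with 0 reads. No annotated gene overlaps the other 7. Same-numbered libraries deviated together, with correlations across genes of 0.175, 0.145 and 0.330, each above 0.1. KO1, however, correlated more with WT2 (0.283) than with WT1. The labels do not say that the numbers pair the libraries. The main fit therefore did not pair them, and the replicate block was run as an alternative.

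Alternatives were a pseudocount of 0.1, other filters, other scalings, no variance trend, sample weights, a replicate block, voom, and leaving out each library.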

Additional observations from a re-analysis of the deposited data

How the results depend on the processing

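The log2 fold changes of the 9 genes stayed negative in 144 of 144 values over 16 alternatives, and 0 passed the threshold (smallest adjusted p 0.0745, Dcn without WT3). Their median was -0.79, and -0.56 to -1.01 with 1 library left out, and the number lower at an unadjusted p under 0.05 was 2 to 9. With the replicate block that number was 9, each with an adjusted p of 0.221 and the median again -0.79; the block changed no call of the 9 genes. Over all genes, 0 passed with the replicate block, no filter, the filter at 0.1, quantile normalization, no variance trend or both libraries numbered 1 left out, against 1 otherwise and 0 to 9 with 1 library left out. Directions turned for 7 of the other named genes. With 1 library left out, Apod ran from -0.0433 to 0.0375, Islr from -0.499 to 0.219, Mbp from -0.0213 to 0.794, Igfbp6 from -0.0872 to 0.193, Ptgs2 from -0.0989 to 0.760 and Ptgs1 from -0.0232 to 0.218. Apod was at 0.0491 with a common sum, 0.0239 with quantile normalization and 0.0402 with sample weights, which put Ptgs2 at -0.270. Without both libraries numbered 1, Igfbp6 was at -0.0208, Ptgs2 at -0.315 and Vkorc1l1 at -0.0172. The cause was not tested. The 9 genes rested on 82 reads or more in each library. How much of the spread between the 3 libraries per group came from read counting was not tested.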
